A study of Rattus norvegicus with 16 samples.

Results

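Vascular endothelium was followed through 10 genes in rat dorsal root ganglia (DRG), chosen by gene symbol from the 21021 genes listed in every table. Of these, 3 report on endothelial content and its growth factor receptors (Pecam1, Kdr, Tek), 3 on cell junctions (Cdh5, Cldn5, Ocln) and 4 on leukocyte adhesion (Icam1, Vcam1, Sele, Selp). All 10 were listed once, and 8 had at least 1 FPKM (fragments scaled to transcript length and to the fragments of the library) in at least 3 samples, which Sele and Selp had not. The question was whether content, barrier and activation genes changed apart from each other.

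The samples came from adult female Sprague-Dawley rats given Walker 256 mammary gland carcinoma cells into the left tibia (tumor cell implantation, TCI) or sham treatment, and the L3–L5 DRGs of the injected side of 1 rat formed 1 sample. TCI rats were sampled on days 1, 7 and 14, with 4 samples in each of the 4 groups. The labels give PBS as the sham injection, whereas the study's methods give boiled tumor cells, and sham ganglia were taken on day 14 only, so time since surgery and TCI cannot be told apart on days 1 and 7. The study excluded day 1 sample 2 and day 7 sample 3, and the main values here are over the remaining 14 samples (4 sham, 3 of day 1, 3 of day 7 and 4 of day 14), and values over all 16 are given where a call differs between them. All 3 TCI groups were compared with the same 4 sham samples.

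Endothelial cells line blood vessels and are held together by adherens junctions, built on VE-cadherin, and tight junctions, built on claudins and occludin. In nerve, tight junctions also join the perineurial cells around the fascicles, while the cell body region of the DRG is known for vessels that are leakier than those of the nerve trunk. When endothelium is activated by cytokines, selectins slow passing leukocytes and the immunoglobulin family molecules ICAM-1 and VCAM-1 hold them through integrins.

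RefSeq promoter sequence (build GRCr8, 250 bases before to 50 bases after the gene start) was at hand for 6 of the 10 genes, namely Cldn5, Ocln, Kdr, Icam1, Vcam1 and Sele. Shown are those of Icam1 (chr8:27829595-27829894, plus strand), Vcam1 (chr2:206742734-206743033, minus strand) and Ocln (chr2:33441149-33441448, minus strand), the 3 genes that were higher than sham on both day 7 and day 14. Capitals mark matches to 3 motifs searched on both strands, which are the NF-κB motif, the GAS element TTCNNNGAA and the TATA box TATAAA.
Icam1: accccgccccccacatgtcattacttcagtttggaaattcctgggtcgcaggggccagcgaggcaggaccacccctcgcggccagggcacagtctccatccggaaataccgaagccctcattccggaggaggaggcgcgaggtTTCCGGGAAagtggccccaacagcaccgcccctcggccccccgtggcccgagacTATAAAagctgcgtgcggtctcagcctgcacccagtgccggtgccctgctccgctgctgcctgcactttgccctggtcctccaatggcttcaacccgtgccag
Vcam1: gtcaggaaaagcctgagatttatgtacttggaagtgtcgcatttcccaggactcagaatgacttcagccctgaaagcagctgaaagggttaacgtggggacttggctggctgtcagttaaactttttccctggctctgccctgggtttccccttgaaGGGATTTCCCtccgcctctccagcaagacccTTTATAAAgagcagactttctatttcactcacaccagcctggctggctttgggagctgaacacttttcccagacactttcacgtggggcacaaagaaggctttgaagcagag
Ocln: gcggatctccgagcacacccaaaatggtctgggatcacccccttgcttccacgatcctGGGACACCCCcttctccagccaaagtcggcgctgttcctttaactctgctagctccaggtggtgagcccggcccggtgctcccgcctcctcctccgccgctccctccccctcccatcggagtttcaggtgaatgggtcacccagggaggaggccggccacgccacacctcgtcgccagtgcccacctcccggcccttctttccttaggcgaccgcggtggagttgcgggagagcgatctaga
An NF-κB match lay 93 bases before the Vcam1 start and 192 bases before the Ocln start. The Icam1 window held a GAS match 107 bases and a TATA box 53 bases before the start, and the Vcam1 window a TATA box on either strand at 60 and 62 bases before it, which overlap in the capitals. Among the windows not printed, Kdr had an NF-κB match 88 bases before its start, and Cldn5 and Sele had no match to the 3 motifs. Over 33469 rat promoters of this length, 4.18% held the NF-κB motif, 8.87% the GAS element and 14.2% the TATA box. A match is a run of letters and not a shown binding site. Variants that differ from these letters were not searched. A window without a match, such as that of Icam1 for NF-κB, may therefore still hold a site.

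The sampled tissue had the markers of its label. The summed level of 5 sensory neuron markers lay between 5433 and 6885 FPKM in the 14 samples, with 3 of the 5 lower on day 7 and 2 on day 14 (4 and 0 over all 16 samples), and all 8 endothelial markers were detected in every group. Skeletal muscle markers summed to 455 FPKM in sham sample 4 and to 19020 FPKM in the left-out sample 3 of day 7, against 8.9 to 20.2 FPKM in the other samples. In whole ganglia, more cells of a type and more RNA per cell cannot be told apart.

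On day 7, 4 of the 8 tested genes were higher than sham by limma with Benjamini-Hochberg adjustment at 0.05 (Cdh5, Ocln, Icam1 and Vcam1) and 0 were lower, while 14.5% of the 14023 genes tested were higher and 3.45% lower. The median log2 fold change of the 8 was 0.55, and that of all genes tested was 0.04. On day 14, 3 of the 8 were higher (Ocln, Icam1 and Vcam1) and 0 lower, beside 11.9% and 3.21% of all genes. Their median log2 fold change was 0.18, against 0.03 for all genes. On day 1, 0 of the 8 passed in limma beside 0% of all genes, and 1 of the 8 (Cldn5) had an unadjusted p under 0.05 beside 5.23% of all genes. None of the 8 passed the study's cut-offs (a log2 fold change of 1 or more either way with an adjusted p up to 0.001) on any day over the 14 samples, beside 0% of all genes higher by them on day 1, 1.83% on day 7 and 0.642% on day 14. The study applied these cut-offs with another method and reported more genes up on each day, so its counts and these are not of the same measure. Fold changes are differences of log2(FPKM + 1), which understate the change of genes with low levels. On day 7, Ocln met the adjusted p cut-off (limma, 0.000985) but not that of fold change (0.80), while its ratio of means was 2.78. Ocln reached the 1 FPKM filter through days 7 and 14 only. Its limma adjusted p on day 7 was 0.00141 with no filter and 0.00327 over all 16 samples, neither of which met that cut-off.

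**Figure D1:**
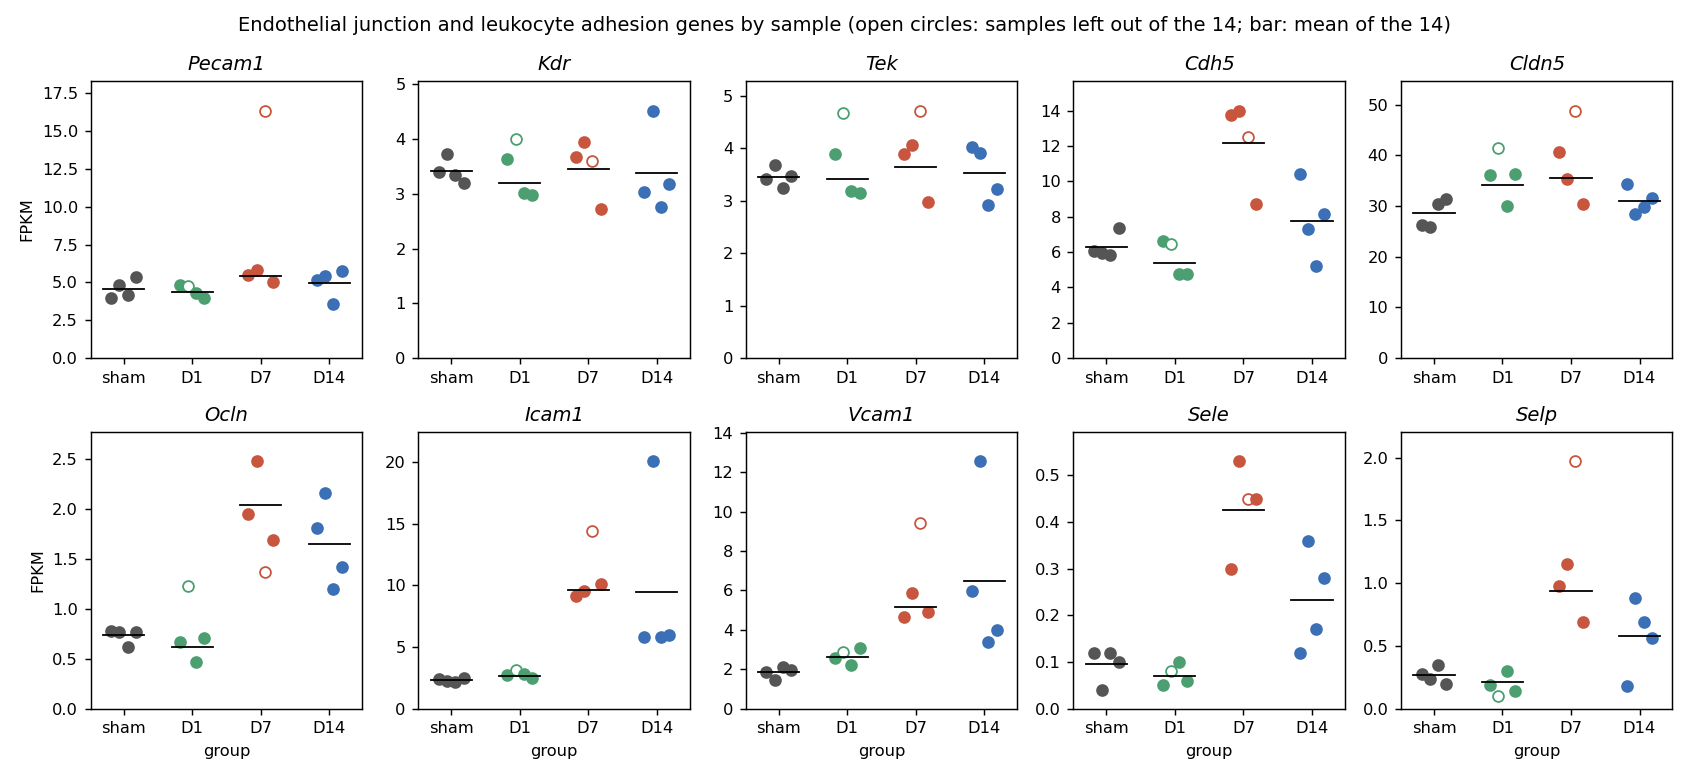
FPKM of each of the 10 genes in every sample (circles) by group, with sham, day 1 (D1), day 7 (D7) and day 14 (D14) on the horizontal axis. Bars are means of the 14 samples and open circles are the 2 samples left out. Icam1 stood at 2.21 to 2.51 FPKM in sham and at 9.17 to 10.07 FPKM in the 3 day 7 samples used, whereas Kdr lay between 2.72 and 4.52 FPKM throughout.

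The content genes did not pass the test on any day. Pecam1 (Entrez gene 29583), which encodes the adhesion molecule CD31 of endothelial cell borders and is also made by platelets and some leukocytes, measured 4.0, 4.80, 4.16 and 5.37 FPKM in sham, 4.82, 4.32 and 3.94 on day 1, 5.48, 5.83 and 5.0 on day 7, and 5.13, 5.40, 3.59 and 5.75 on day 14. Every TCI group overlapped sham. Its day 7 log2 fold change was 0.21 (95% interval -0.06 to 0.48, adjusted p = 0.279) and that of day 14 was 0.09 (-0.16 to 0.34, adjusted p = 0.657). In the left-out sample 3 of day 7 it was at 16.34 FPKM, and over all 16 samples the day 7 change was 0.57 with an adjusted p of 0.126.

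Kdr (25589), the main VEGF receptor of endothelium, was the flattest of the content genes on day 7. It measured 3.40, 3.73, 3.34 and 3.20 FPKM in sham, 3.63, 3.01 and 2.98 on day 1, 3.68, 3.94 and 2.72 on day 7, and 3.03, 4.52, 2.77 and 3.19 on day 14. The groups overlapped throughout, and the day 14 values spread most widely. The log2 fold change was 0.00 on day 7 (-0.28 to 0.28, adjusted p = 0.999) and -0.03 on day 14 (-0.29 to 0.23, adjusted p = 0.905), so a change of more than about 0.29 either way lay outside these intervals.

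Tek (89804) encodes TIE2, the receptor of the angiopoietins. Its levels were 3.42, 3.69, 3.24 and 3.48 FPKM in sham, 3.90, 3.18 and 3.15 on day 1, 3.90, 4.07 and 2.98 on day 7, and 4.03, 3.92, 2.92 and 3.23 on day 14. No group stood apart from sham. The day 7 log2 fold change was 0.05 (-0.18 to 0.29, adjusted p = 0.781) and the day 14 one 0.01 (-0.20 to 0.23, adjusted p = 0.943).

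The 3 junction genes differed in what passed. Cdh5 (307618), which encodes VE-cadherin, measured 6.08, 5.93, 5.86 and 7.34 FPKM in sham, 6.61, 4.78 and 4.75 on day 1, 13.77, 14.00 and 8.72 on day 7, and 10.40, 7.31, 5.22 and 8.14 on day 14. All day 7 samples were above all sham samples, while day 1 and day 14 overlapped sham. The group means were 6.30 ± 0.698 (SD, n = 4) in sham and 12.2 ± 2.98 (n = 3) on day 7, a ratio of 1.93, and Cdh5 rose by a log2 fold change of 0.83 (SE 0.194, adjusted p = 0.0101). Without day 7 sample 1 the adjusted p was 0.0517 and without sample 2 it was 0.0524. On day 14 the mean was 7.77 ± 2.14 (n = 4), with a log2 fold change of 0.24 (-0.15 to 0.62, adjusted p = 0.415). The difference of day 14 from day 7, tested directly, was -0.59 (-1.01 to -0.17) with an adjusted p of 0.320. In that comparison 0 of the 8 genes passed in limma beside 0.0998% of all genes, and 1 of the 8 (Cdh5) had an unadjusted p under 0.05 beside 9.96% of all genes.

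Cldn5 (65131), the claudin that seals endothelial tight junctions, had the highest FPKM of the 10 genes in every group. It measured 26.35, 25.94, 30.48 and 31.39 FPKM in sham, 36.09, 30.09 and 36.32 on day 1, 40.69, 35.37 and 30.47 on day 7, and 34.32, 28.37, 29.90 and 31.58 on day 14. Each TCI group overlapped the 2 higher sham samples. The log2 fold changes were 0.25 on day 1 (0.03 to 0.48, adjusted p = 0.939), 0.30 on day 7 (0.08 to 0.53, adjusted p = 0.0645) and 0.12 on day 14 (-0.09 to 0.33, adjusted p = 0.443). The day 7 call depended on the samples, since the adjusted p was 0.0310 with a log2 fold change of 0.42 over all 16 and 0.0243 without day 7 sample 4.

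Ocln (83497) encodes occludin, a tight junction protein of endothelium, perineurium and epithelium. It measured 0.78, 0.77, 0.62 and 0.77 FPKM in sham, 0.67, 0.47 and 0.71 on day 1, 1.95, 2.48 and 1.69 on day 7, and 1.81, 2.16, 1.20 and 1.42 on day 14. Of the 14 samples, every day 7 and day 14 sample was above every sham and day 1 sample, although the left-out day 1 sample was at 1.23 FPKM, and days 7 and 14 overlapped each other. The mean went from 0.735 ± 0.0768 (n = 4) to 2.04 ± 0.403 (n = 3) on day 7, a ratio of 2.78, and to 1.65 ± 0.425 (n = 4) on day 14. Ocln rose by a log2 fold change of 0.80 on day 7 (SE 0.127, adjusted p = 0.000985) and 0.60 on day 14 (SE 0.118, adjusted p = 0.00546). It reached the filter of 1 FPKM through days 7 and 14 only, and with no filter the adjusted p was 0.00141 on day 7 and 0.00714 on day 14.

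Of the adhesion genes, Icam1 and Vcam1 had the largest log2 fold changes of the 8 tested genes on both day 7 and day 14. By ratio of means, Vcam1 and the lower-level Ocln were alike on day 7 (2.78 each), and stood at 3.49 and 2.24 on day 14. Icam1 (25464) encodes the ligand of the leukocyte integrins LFA-1 and Mac-1, and is made by activated endothelium as well as by leukocytes and other cells. It measured 2.40, 2.29, 2.21 and 2.51 FPKM in sham, 2.73, 2.85 and 2.49 on day 1, 9.17, 9.56 and 10.07 on day 7, and 5.85, 20.04, 5.80 and 6.0 on day 14. Day 1 overlapped sham, and all day 7 and day 14 samples were above both. Day 7 was tight at 9.60 ± 0.451 (n = 3), 4.08 times the sham mean of 2.35 ± 0.131 (n = 4), and Icam1 rose by a log2 fold change of 1.66 (SE 0.302, adjusted p = 0.00233). Over all 16 samples the day 7 change was 1.80 with an adjusted p of 0.000427, which is past the study's cut-offs. Day 14 was at 9.42 ± 7.08 (n = 4), with a log2 fold change of 1.44 (SE 0.279, adjusted p = 0.00504). Sample 2 carried much of that mean, and without it the day 14 change was 1.04, which still passed. Between day 14 and day 7 the difference was -0.22 (-0.87 to 0.43, adjusted p = 0.856), and without day 14 sample 2 it was -0.62 with an adjusted p of 0.00114.

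Vcam1 (25361) encodes the endothelial ligand of the integrin VLA-4. Its levels were 1.88, 1.44, 2.13 and 1.96 FPKM in sham, 2.57, 2.21 and 3.10 on day 1, 4.66, 5.89 and 4.92 on day 7, and 5.95, 12.55, 3.39 and 3.99 on day 14. It was the only one of the 10 genes whose day 1 samples all lay above sham, as did 6.17% of all genes tested. The day 1 log2 fold change was 0.35 (-0.27 to 0.96, limma adjusted p = 0.976). Like the other limma SEs and intervals here, this one rests on a spread shared by all 4 groups. It does not measure the spread of day 1 and sham alone, and for Vcam1 day 14 spread most widely. The mean was 1.85 ± 0.294 (n = 4) in sham, 5.16 ± 0.648 (n = 3) on day 7 and 6.47 ± 4.20 (n = 4) on day 14. Vcam1 rose by a log2 fold change of 1.11 on day 7 (SE 0.286, adjusted p = 0.0166) and 1.25 on day 14 (SE 0.265, adjusted p = 0.00791). Without day 7 sample 2 the day 7 adjusted p was 0.0662, and without day 14 sample 2 the day 14 change was 0.91 and passed.

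The selectins were near the lower end of what the tables resolve, so each was tested alone by a two-sided exact permutation test of log2(FPKM + 1), whose smallest p is 0.0286 with 3 against 4 samples. Sele (25544), E-selectin of activated endothelium, measured 0.12, 0.04, 0.12 and 0.10 FPKM in sham, 0.05, 0.10 and 0.06 on day 1, 0.30, 0.53 and 0.45 on day 7, and 0.12, 0.36, 0.17 and 0.28 on day 14. Its day 7 samples were above all sham samples (difference 0.38, exact permutation p = 0.0286), and on day 14 the lowest sample equalled the highest of sham (difference 0.17, exact permutation p = 0.0857). Selp (25651), P-selectin of endothelium and platelets, measured 0.28, 0.24, 0.35 and 0.20 FPKM in sham, 0.19, 0.30 and 0.14 on day 1, 0.98, 1.15 and 0.69 on day 7, and 0.18, 0.88, 0.69 and 0.56 on day 14. Day 7 lay wholly above sham (difference 0.61, exact permutation p = 0.0286), whereas day 14 sample 1 was below every sham sample and the other 3 above (difference 0.30, exact permutation p = 0.143). In a limma fit with no filter, both passed on day 7 (adjusted p = 0.00305 for Sele and 0.00978 for Selp) and neither on day 14 (0.112 and 0.151). Over days 7 and 14, 6 and 3 of the 10 genes did not overlap sham and were higher, beside 23.8% and 13.8% of all genes tested. The 6 of day 7 include Sele and Selp, which are not among the genes tested that give these shares. Only 1 of 5 platelet markers was tested (Pf4, higher on day 7), 1 (Ppbp) was at 0 in every sham sample, and their summed level was 2.24 to 4.12 FPKM in sham and 6.34 to 11.48 FPKM on day 7. The part of platelets in the Selp values was not tested.

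To ask whether the genes changed apart from endothelial content, the mean log2(FPKM + 1) of 16 other pan-endothelial genes was subtracted in each sample before the same limma test. Of that list, 14 genes were tested, 4 were higher on day 7 (Sox18, Sox17, Clec14a and Egfl7, and also Eng over all 16 samples) and 0 on day 14, with medians of 0.17 and 0.07. Sox18 and Sox17, transcription factors of endothelium, rose by 0.64 and 0.40. The summed level of the list ran from 68.7 to 75.5 FPKM in sham, 69.8 to 81.7 on day 1, 78.2 to 89.7 FPKM for day 7 and 66.0 to 84.3 FPKM for day 14, so day 7 lay just above sham.

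Relative to this list, the same 4 genes were higher on day 7 and 0 were lower, beside 6.84% of all genes higher and 17.1% lower. The relative changes were 1.46 for Icam1 (0.90 to 2.03, adjusted p = 0.00206), 0.91 for Vcam1 (adjusted p = 0.0197), 0.63 for Cdh5 (0.29 to 0.97, adjusted p = 0.0126) and 0.60 for Ocln (adjusted p = 0.00258). Pecam1 was at 0.01 (-0.19 to 0.22), Cldn5 at 0.10, Kdr at -0.20 and Tek at -0.14, and none of these passed. On day 14 Icam1 (1.401, adjusted p = 0.00239), Vcam1 (1.21, adjusted p = 0.00475) and Ocln (0.56, adjusted p = 0.00398) were higher, beside 6.66% of all genes higher and 2.07% lower, and Cdh5 was at 0.19 (adjusted p = 0.506). On day 1, 0 of the 8 passed in limma beside 0% of all genes. Without day 7 sample 2 the relative adjusted p was 0.0655 for Cdh5 and 0.0745 for Vcam1, without day 7 sample 1 it was 0.0617 for Cdh5, and over all 16 samples that of Ocln on day 14 was 0.0542. With Pecam1 and Cdh5 as the reference instead, Ocln no longer passed on day 7 (0.28, adjusted p = 0.142) or day 14 (0.44, adjusted p = 0.164), and Kdr (-0.52, adjusted p = 0.0162) and Tek (-0.46, adjusted p = 0.0144) were lower on day 7. That reference holds Cdh5, itself higher on day 7 by 0.83, and its rise lowers every value relative to it. As deposited, the day 7 changes were 0.00 for Kdr and 0.05 for Tek, so these values show no fall of either gene.

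**Figure D2:**
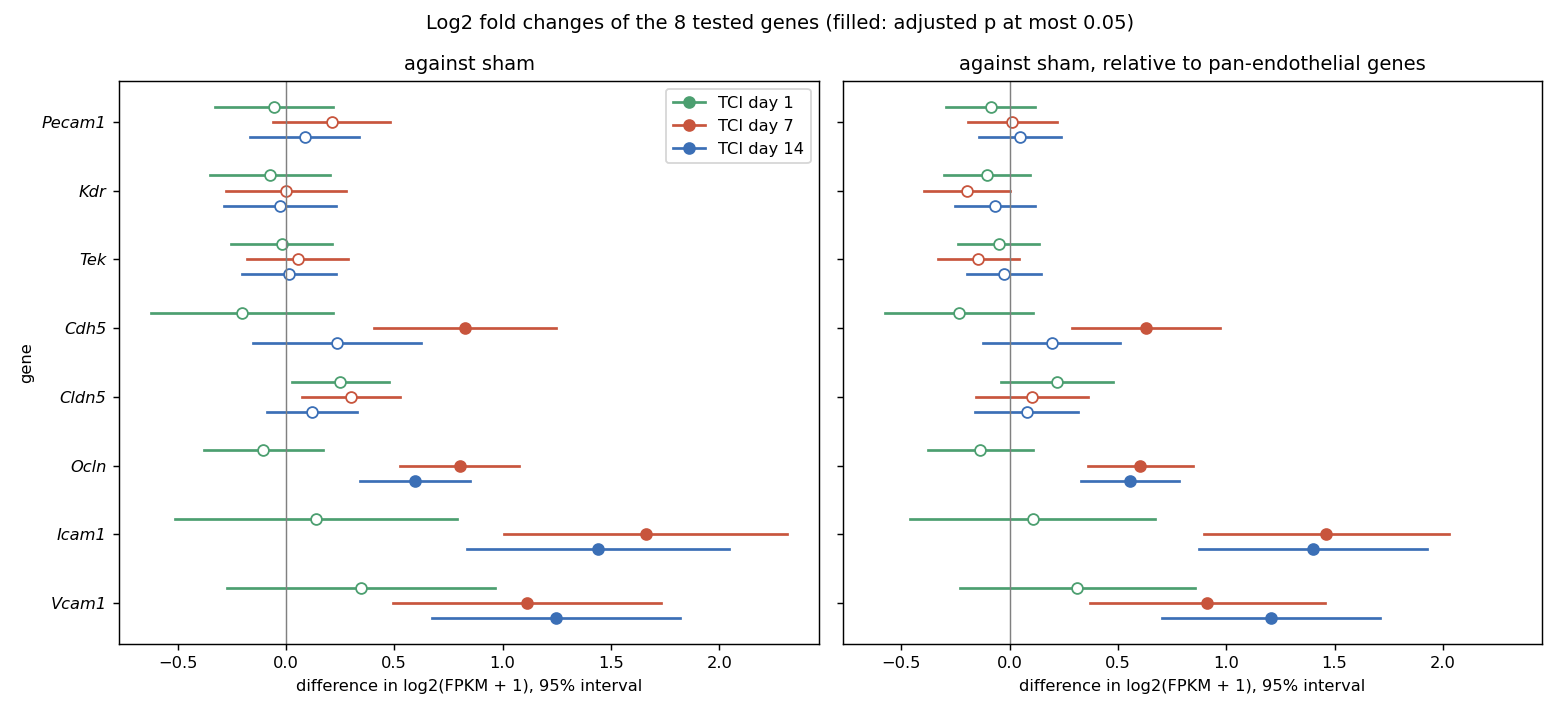
Difference in log2(FPKM + 1) from sham for the 8 tested genes on days 1, 7 and 14, as deposited (left) and relative to 16 pan-endothelial genes (right), with lines for 95% intervals and filled circles for an adjusted p of at most 0.05. Cdh5, Ocln, Icam1 and Vcam1 are filled on day 7 in both panels, and Pecam1, Kdr and Tek in neither.

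Ratios within a sample need no reference list. Cdh5 per Pecam1, a ratio of FPKM, was 1.24 to 1.52 in sham, 1.11 to 1.37 on day 1, 1.74 to 2.51 in the 3 day 7 samples used and 1.35 to 2.03 on day 14. It was 0.765 in the left-out day 7 sample, where Pecam1 was high. Icam1 per Cldn5 was 0.0725 to 0.0911 in sham, 0.0686 to 0.0947 on day 1, 0.225 to 0.330 for day 7 and 0.170 to 0.706 for day 14, so days 7 and 14 did not overlap sham.

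Markers of other cell types were also higher on the days when Icam1 and Vcam1 were. All 8 macrophage markers and all 6 T cell markers were higher on day 7, and 6 of 8 and 6 of 6 on day 14. Summed macrophage markers lay at 50.3 to 95.3 FPKM in sham and 64.7 to 76.5 FPKM on day 1, then at 647 to 923 FPKM on day 7 and at 389 to 1350 FPKM on day 14. The T cell sum was 5.17 to 7.79 FPKM in sham, 36.6 to 81.4 on day 7 and 30.3 to 88.1 on day 14. Day 14 sample 2, with the highest Icam1 and Vcam1, also had the highest macrophage and T cell sums of that group, but its lowest neutrophil sum, at 1.65 FPKM. Of 5 neutrophil markers 2 were tested, and both were higher on day 7 and 0 on day 14, with a sum of 0.65 to 0.99 FPKM in sham, 4.79 to 19.5 FPKM on day 7 and 1.65 to 3.01 FPKM on day 14. Even that sum stayed below 1 FPKM in sham, so the tested neutrophil markers met the filter through TCI samples only. T cell markers were also low, with a mean log2(FPKM + 1) of 0.476 to 0.665 in sham, where 1 FPKM gives a value of 1. At 0 in every day 1 sample used was 1 of these 6 markers. Their average was thus below the filter level in sham, and whether each met the filter through TCI samples only was not tested. Fibroblast markers were higher in 3 of 5 on day 7 (2 over all 16 samples) and 1 of 5 on day 14, and summed to 314 to 441 FPKM in sham, 806 to 926 FPKM on day 7 and 266 to 778 FPKM on day 14. The part of leukocyte or fibroblast RNA in the Icam1 and Vcam1 values was not tested.

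All 3 perineurium markers (Cldn1, Slc2a1 and Msln) were higher on day 7, when Cdh5 and Ocln were, and 1 of 3 on day 14, with a sum of 38.6 to 46.1 FPKM in sham, 62.3 to 72.5 on day 7 and 41.2 to 69.5 on day 14. Over all 16 samples these counts were 2 (without Slc2a1) and 0. Vein markers were higher in 3 of 4 on day 7 and 1 of 4 on day 14, but after quantile normalization 1 was higher (Nr2f2) and 1 lower (Ackr1) on day 7. Of 3 artery markers tested, 1 was higher on day 7 (Gja4) and 1 lower on day 14 (Hey1), with medians of -0.08 and -0.10. After quantile normalization 0 were higher and 1 was lower (Hey1) on each of these days, and over all 16 samples Hey1 was lower on day 7 and not on day 14. Among all genes tested, quantile normalization raised the lower calls from 484 to 2237 on day 7 and from 450 to 1560 on day 14. Pericyte and smooth muscle markers were higher in 1 of 9 tested on day 7 and 0 of 9 on day 14. Of all genes, 14.5% and 11.9% were higher on these days. Of 2 capillary markers tested, 1 was lower on day 7 (Mfsd2a). Cldn1, Slc2a1 and Mfsd2a also belong to the junction and barrier list, and Vwf and Ackr1 to both the vein markers and the other adhesion molecules. Jam2 is in both the junction and barrier list and the other adhesion molecules, and Itgam is both a macrophage marker and a leukocyte partner. The pan-endothelial list shares Tie1 and Flt1 with the VEGF and angiopoietin list, and Tie1, Egfl7 and Emcn with the endothelial markers. The part of perineurium in the Ocln and Cdh5 values was not tested.

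**Figure D3:**
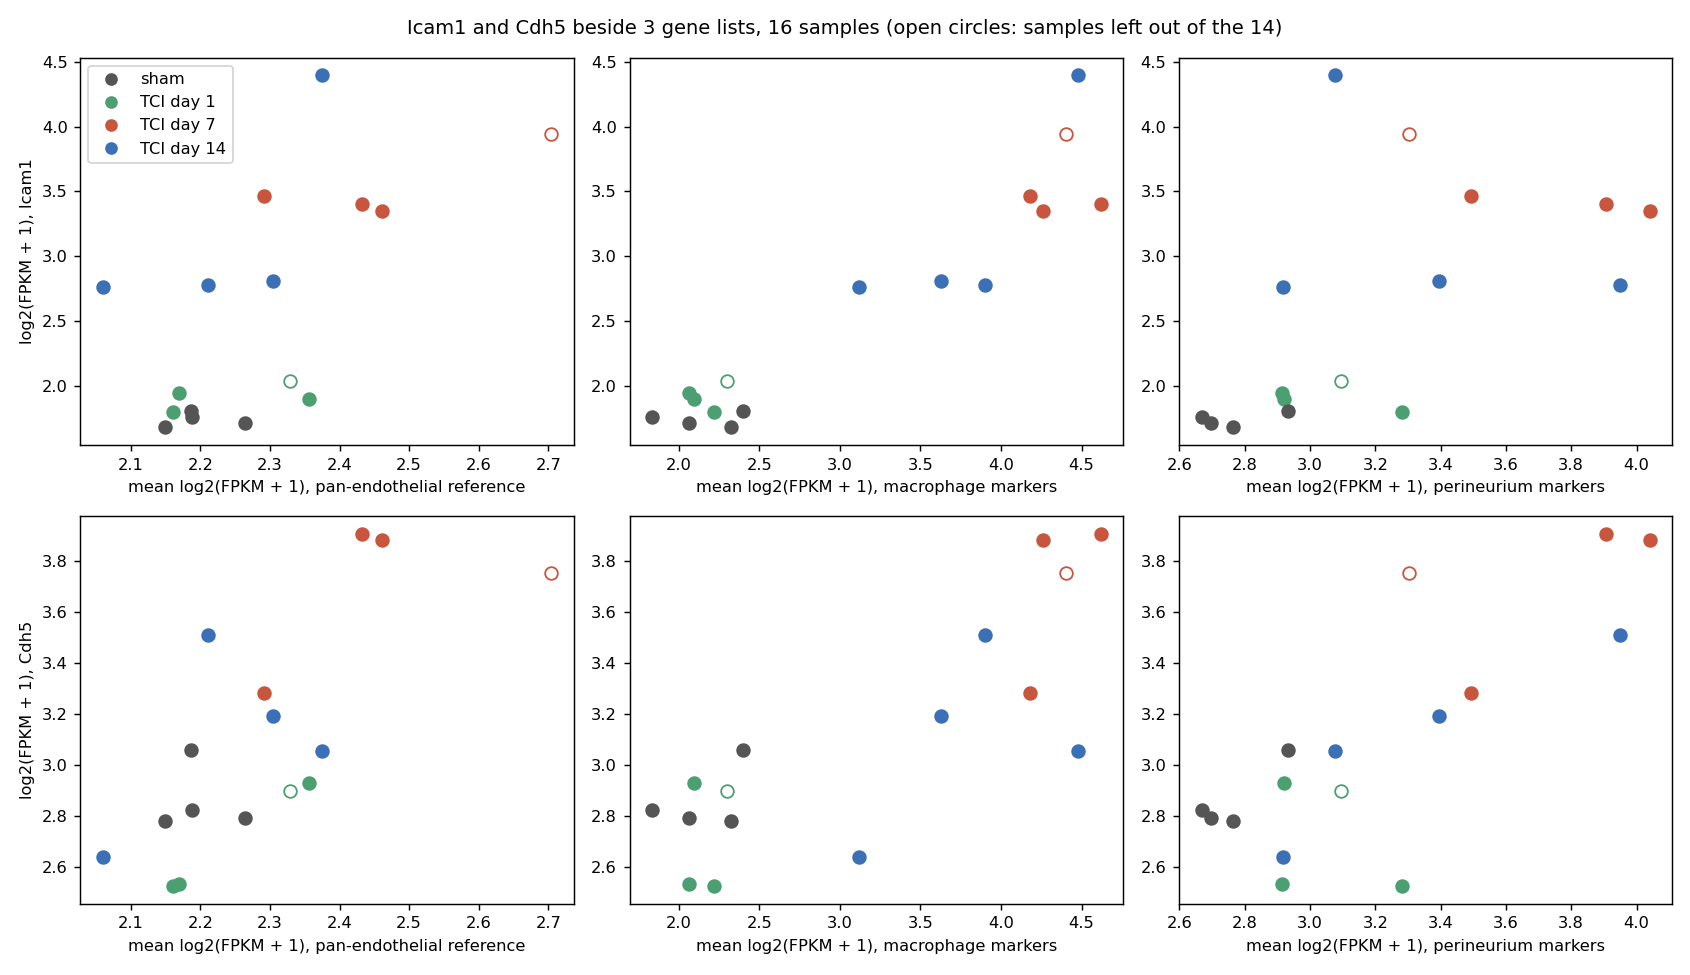
Log2(FPKM + 1) of Icam1 (top row) and Cdh5 (bottom row) in 16 samples against the mean log2(FPKM + 1) of pan-endothelial, macrophage and perineurium genes, with groups by color and open circles for the 2 samples left out. Day 7 and day 14 samples stand to the right of sham and day 1 for macrophage markers, and Icam1 is highest in day 14 sample 2 at 20.04 FPKM.

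Other junction and barrier genes were split. Of 18 tested, 5 were higher and 1 lower on day 7, and 2 were higher on day 14. Their medians were 0.06 and -0.06, against 0.04 and 0.03 for all genes. Beside these and all other list counts stand 14.5% of all genes higher and 3.45% lower on day 7. On day 14 these shares were 11.9% and 3.21%, so the day 14 count of this list was near that of all genes. Cldn1, a claudin of perineurium and epithelium, went from 7.97 ± 1.98 FPKM (n = 4) to 23.9 ± 4.74 (n = 3) on day 7, and rose by 1.48 (adjusted p = 0.0013) and on day 14 by 0.75 (adjusted p = 0.0419). Lsr, which recruits proteins to tricellular junctions, rose by 0.97 on day 7 (adjusted p = 6.09e-05) and 0.38 on day 14 (adjusted p = 0.00943). F11r, which encodes the junctional molecule JAM-A, Plvap, which forms the diaphragms of permeable capillaries, and Slc2a1, the glucose transporter GLUT1 of barrier cells, rose on day 7 by 0.43, 0.37 and 0.37. Mfsd2a, a lipid transporter of barrier endothelium, fell by 0.19 (adjusted p = 0.0472). Over all 16 samples Slc2a1 did not pass on day 7, and 0 of these passed on day 14.

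Of 14 genes tested of VEGF and angiopoietin signaling, 1 was higher on day 7 (Notch4, 0.31, limma adjusted p = 0.0155) and 2 were lower on day 14. Among all genes, 14.5% were higher on day 7 and 3.21% lower on day 14. After quantile normalization 0 were higher and 3 lower on day 7, and 5 were lower on day 14 (Pgf, Flt1, Angpt2, Angptl4 and Dll4). Of the 14023 genes tested, 2237 were then lower on day 7 and 1560 on day 14, against 484 and 450 as deposited. Whether this list fell more often than all genes was not tested. Over all 16 samples Pgf was also lower on day 7. Pgf, placental growth factor, fell by 0.43 (adjusted p = 0.0163), from 5.56 ± 0.297 to 3.90 ± 0.692 FPKM (n = 4 each). Angptl4, a secreted regulator of lipases and vessels, fell by 0.64 (adjusted p = 0.00123), from 4.41 ± 0.119 to 2.48 ± 0.436 FPKM.

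Partners of the adhesion genes on leukocytes had the largest median among the 7 related lists, below those of the macrophage and T cell markers. Of 10 tested, 7 were higher on day 7 and 7 on day 14, with medians of 1.52 and 1.14. Itgal and Itgb2, the chains of LFA-1, rose on day 7 by 2.74 (0.510 ± 0.151 to 9.62 ± 4.19 FPKM) and 2.18 (0.805 ± 0.237 to 7.34 ± 2.05 FPKM). Both sham means were below the filter level of 1 FPKM, so both genes met the filter at least partly through TCI samples. Selplg, the P-selectin ligand PSGL-1, rose by 2.24 on day 7 and 1.71 on day 14. Itgam, the alpha chain of Mac-1, rose by 1.66 and 1.05.

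Of 10 other adhesion molecules of endothelium, 3 were higher on day 7 and 1 on day 14, beside 14.5% and 11.9% of all genes. Icam2, a constitutive endothelial ligand of LFA-1, rose by 0.82 on day 7 (1.99 ± 0.313 to 4.30 ± 0.550 FPKM, adjusted p = 0.00112) and stood at 0.24 on day 14 (adjusted p = 0.215). Vwf, von Willebrand factor, rose by 0.59 on day 7 (adjusted p = 0.0223), and Cd99, which takes part in transmigration, by 0.34 on both days. Over all 16 samples Cd99 did not pass on either day.

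Cytokine activation genes were higher in 9 of 13 tested on day 7 (11 over all 16 samples) and 8 of 13 on day 14, with medians of 0.67 and 0.61. Irf1, a transcription factor of the interferon response, rose by 2.25 on day 7, from 3.84 ± 0.532 to 21.9 ± 0.654 FPKM, and by 2.07 on day 14, at 26.0 ± 26.6 FPKM. Tnfrsf1b, a receptor of TNF, rose by 1.69 and 1.29, and Nfkbia, the NF-κB inhibitor that NF-κB itself induces, by 0.96 and 0.90. These genes are expressed by leukocytes as well as by endothelium.

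Of 9 genes of coagulation and vessel tone, 8 were higher on day 7 and 2 on day 14 (1 over all 16 samples, F3), with medians of 0.50 and 0.32. Thbd, thrombomodulin, rose by 1.07 on day 7 (4.60 ± 0.554 to 11 ± 2.95 FPKM, adjusted p = 0.00137) and was at 0.45 on day 14 (adjusted p = 0.0873). F3, tissue factor, rose by 1.08 (adjusted p = 0.00865) and 0.84 (adjusted p = 0.0273). After quantile normalization, which moved the median log2 fold change of all genes on day 7 from 0.04 to -0.07, 3 of these 9 and 1 of the 14 tested pan-endothelial genes (Sox18) were higher on day 7, whereas 7 of 10 leukocyte partners were.

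**Figure D4:**
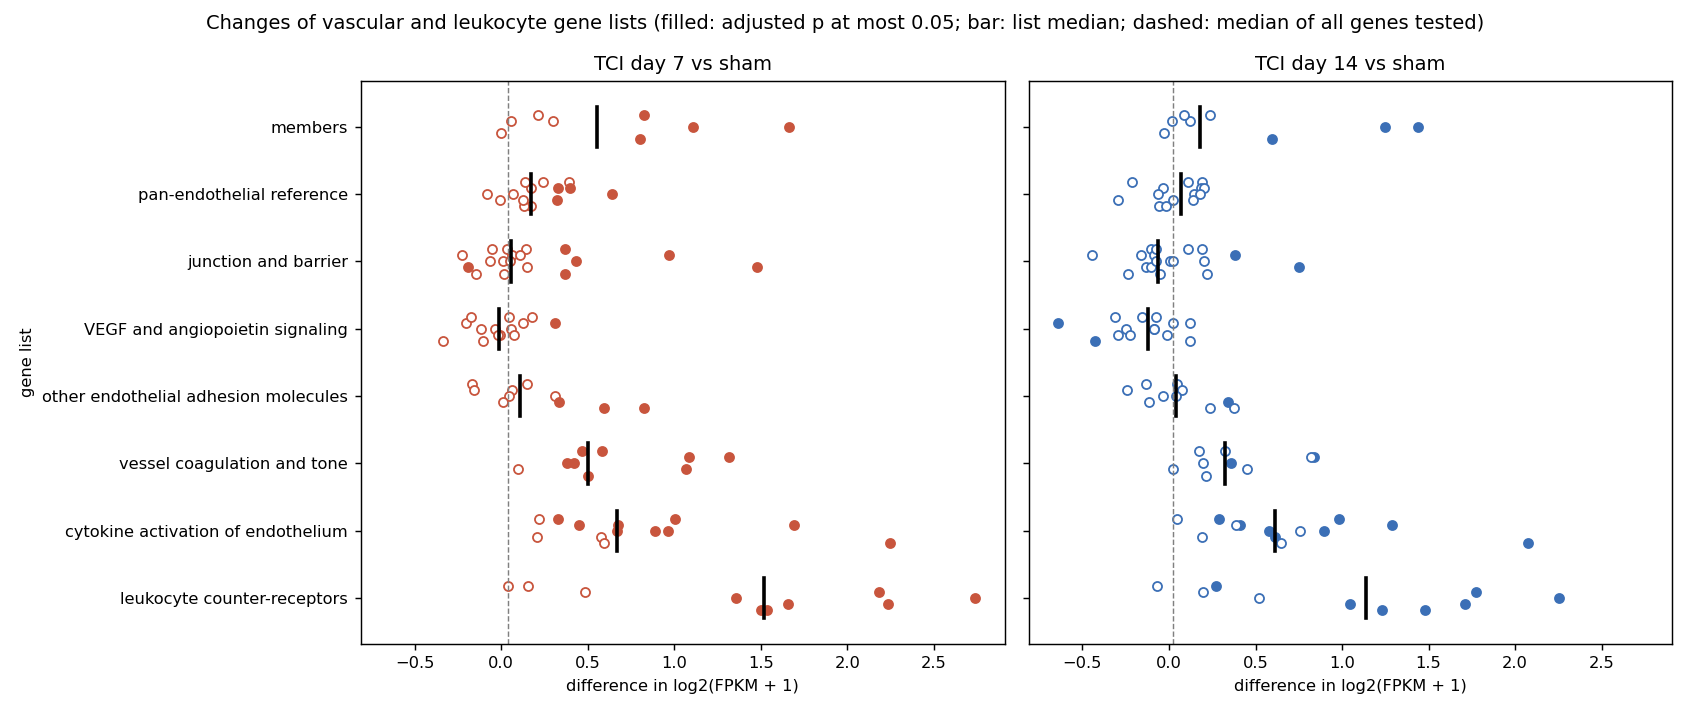
Difference in log2(FPKM + 1) from sham on day 7 (left) and day 14 (right) for each tested gene of the 10 (top row, members) and of 7 related lists. Circles are filled at an adjusted p of at most 0.05, bars are list medians and the dashed line is the median of all genes tested. The pan-endothelial median is 0.17 on day 7 and the median of the leukocyte partners 1.52.

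Genes whose levels ran most like the members' across the 14 samples, among tested genes with a mean of at least 5 FPKM, differed between the members. For Icam1 they were LOC685067 (Pearson r = 0.994), Gbp5 (0.991) and Gbp2 (0.991), the Gbp genes being interferon-induced GTPases, and for Vcam1 Oasl2 (0.977), RGD1309362 (0.973) and Parp14 (0.968). For Ocln they were Arhgdib (0.979), Clec4a1 (0.975) and Cp (0.971). For Cdh5 they were Sdpr (0.949), Numa1 (0.934) and Cldn1 (0.927), the perineurial claudin. Pecam1 ran most like Ptbp3 (0.928), Ikbip (0.926) and Phf2 (0.885), and Cldn5 like Fkbp7 (0.897), Map2k3 (0.817) and LOC498453 (0.793). Kdr ran most like Gmps (0.899), Adipor2 (0.889) and Sgpl1 (0.882), and Tek like Pias1 (0.934), Tbcel (0.900) and Ncoa2 (0.887). The samples share their groups, so these r values describe likeness only.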

How the data were processed

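RNA-seq was made from 16 DRG samples in 4 groups. The authors filtered the reads, mapped them with HISAT and Bowtie2, estimated expression with RSEM and deposited FPKM per gene, rounded to 2 decimals, in 1 table per sample. The submitters' processing notes also name CASAVA 1.4. The genome build is not given in the sources used here. FPKM holds no read totals, so the depth behind each value is unknown and no counting error was computed. Groups came from the labels.

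From the FPKM, log2(FPKM + 1) was computed, and genes reaching 1 FPKM in 3 or more of the 14 samples, 14023 in all, were fitted with limma 3.58.1 (R 4.3.3), all 4 groups in 1 fit with trended variances and Benjamini-Hochberg adjustment over all genes. Sele and Selp were below that filter and were tested by exact permutation. For the relative test, the mean of the 16 pan-endothelial genes was subtracted in each sample. A simulated day 7 comparison with 14023 genes recovered 95 of 100 genes changed by a log2 fold change of 1. It recovered 99 of 100 changed by 2, with 5 false calls. The simulated noise was normal and independent, with the same spread in every group, and no other genes were changed. The real groups differ in spread and many more genes were called, so these figures are not error rates of the real comparison. The members and lists were chosen with earlier results of these data known. Named were all 10 members, up to 6 genes per list that passed on day 7 or 14, and the 3 genes most like each tested member, and some results are not reported here. No 2 samples shared more than 2.59% of identical values. Alternatives were another pseudocount, other filters, quantile normalization, all 16 samples, a replicate block, another reference and each sample left out. The calls for the lists under quantile normalization and over all 16 samples were added after the data were seen.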

Additional observations from a re-analysis of the deposited data

Results flagged for a closer look

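In 4 of 40 groups of 4 samples, 1 per gene and group over all 16 samples, a single sample lay apart by Dixon's ratio (above 0.829), and chance alone would do so in about 1 in 20 groups. Icam1 was at 20.04 FPKM in day 14 sample 2, beside 5.80 to 6.0 FPKM in the other 3. Pecam1 was at 16.34 FPKM in day 7 sample 3, a sample that the study left out and that had the highest skeletal muscle markers. Cdh5 was at 7.34 FPKM in sham sample 4, the highest of its group. That sham sample had the next highest skeletal muscle markers, at 455 FPKM, and is among the 14 samples used. Ocln was at 0.62 FPKM in sham sample 3, the lowest of its group.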

How the results depend on the processing

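The number of members higher than sham on day 7 (4) was 2 among genes with a mean of at least 5 FPKM and 0 by the study's cut-offs, 6 with no filter (Sele and Selp added), and 2 to 5 with 1 sample left out (2 without day 7 sample 2 and 5 without day 7 sample 4). On day 14 (3) it was 1 and 0, and 3 to 3 with 1 sample left out. The first change follows from testing fewer genes, since the means of Ocln and Vcam1 are below that filter. Between day 14 and day 7 it was 0 to 1 with 1 sample left out (Icam1, without day 14 sample 2), and relative to the pan-endothelial genes on day 7 it was 2 to 4 (2 without day 7 sample 2). Quantile normalization turned 80.7% of day 7 calls being higher into 38.4%, and 78.8% into 43.1% on day 14, but left the members' calls as they were. By it, the junction and barrier list had 4 higher and 2 lower on day 7 and 1 and 2 on day 14, and the VEGF and angiopoietin list 0 and 3, then 0 and 5. The cytokine list had 7 higher on day 7 and 6 on day 14, and the other adhesion molecules 2 higher and 1 lower on day 7. Lower calls among all genes tested were 2237 on day 7 and 1560 on day 14 under quantile normalization, against 484 and 450. Samples of different groups that share a number came from different rats, so the numbers do not pair them. The correlation of their deviations ran from -0.0952 to 0.269 (median 0.0026). That of samples with different numbers ran from -0.326 to 0.410 (median -0.0047). With the replicate block the counts were again 4 and 3.

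Directions turned only for values that did not pass, and the cause was not tested. Over all 16 samples this was so for Ocln (0.013) and Tek (0.073, relative 0.016) on day 1 and Vcam1 between days 14 and 7 (-0.056). Under quantile normalization it was so for Kdr (-0.20) and Tek (-0.15) on day 7, Pecam1 (-0.010) and Tek (-0.11) on day 14, and Kdr (0.049) and Tek (0.036) between days 14 and 7. With the replicate block these were Tek on day 1 (0.023), Kdr on day 7 (-0.040), Kdr (0.012) and Tek (0.0038) between days 14 and 7, and relative Pecam1 on day 7 (-0.0098). A pseudocount of 0.1 gave -0.0029 for Kdr and -0.016 for relative Pecam1 on day 7. With Pecam1 and Cdh5 as the reference, day 1 values were 0.025 for Ocln, 0.056 for Kdr and 0.11 for Tek, and Cldn5 was at -0.22 on day 7 and -0.043 on day 14. With 1 sample left out, Pecam1 on day 1 ran from -0.12 to 0.011 and Tek from -0.097 to 0.023, Kdr from -0.081 to 0.12 and Tek from -0.013 to 0.16 on day 7, Kdr from -0.14 to 0.039 and Tek from -0.039 to 0.081 on day 14, and between days 14 and 7 Kdr from -0.15 to 0.053, Tek from -0.15 to 0.027 and Vcam1 from -0.20 to 0.34. Relative values ran from -0.035 to 0.081 for Pecam1 on day 7, from -0.00024 to 0.12 for Pecam1 and from -0.088 to 0.027 for Tek on day 14. With any sample left out, the exact permutation p of Sele and Selp on day 7 was 0.0667 or 0.1, the smallest those sizes allow, and without day 14 sample 1 both reached 0.0286 on day 14.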
